A study of Homo sapiens with 36 samples.

Results

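The 10 genes described here are 8 targets of the transcription factor NRF2 and the 2 subunits of ferritin: NQO1, HMOX1, GCLM, GCLC, TXNRD1, SRXN1, AKR1C1, AKR1B10, FTH1 and FTL. They were chosen by name from the 27852 genes with a symbol, and the counts of their 71 transcripts were summed per gene. Bulk RNA was sequenced from 36 cultures of 4 human prostate cancer (PCa) cell lines, of which C4-2 and C4-2B are grouped as osteoblastic (BPCa) and DU145 and 22Rv1 as osteolytic (LPCa). Each line was grown for 5 days in 4 ways. In mono-culture (n = 3 per line) the cells grew alone without RANKL. In the MG63 co-culture (n = 2) they shared medium, across a porous filter, with MG63 cells, a human osteosarcoma line that stands in for osteoblasts (OBs). In the RANKL mono-culture (n = 2) they grew alone with 50 ng/mL RANKL, the cytokine that drives osteoclast formation. In the RAW264.7 co-culture (n = 2) they faced RAW264.7 mouse macrophages across the filter, with the same RANKL. Each phenotype thus rests on a pair of established lines, and although the study's methods speak in general of independent experiments, neither they nor the labels say how the replicate libraries of a group relate, so p-values measure only the spread between these samples.

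NRF2, encoded by NFE2L2, is kept low by KEAP1, which hands it to a CUL3 ubiquitin ligase for destruction. Oxidants and electrophiles modify KEAP1, and NRF2 then accumulates, pairs with a small MAF protein and binds antioxidant response elements (AREs) near its targets, where BACH1 competes with it. The targets make glutathione, reduce thioredoxin and peroxiredoxin, break down heme and reduce quinones and aldehydes. Ferritin is a shell of heavy (FTH1) and light (FTL) chains that stores iron. Its mRNAs also carry an iron-responsive element (IRE) in the 5′ UTR, through which iron regulatory proteins block translation when iron is scarce, so the mRNA levels given here are not ferritin protein.

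The ARE was read as its core TGACNNNGC on both strands of the RefSeq promoter windows (GRCh38.p14, 250 bases before to 50 after a gene's start). The core was present in 13.3% of all 35116 windows. Of the 10 genes, 7 had a window, 8 windows in all, and the core lay in the windows of 2 genes, GCLM and TXNRD1. These 4 stretches are shown because they are the bases that NRF2 and a small MAF protein can read, with the core in capitals as it stands on the gene's own strand.

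GCLM chr1:93909445-93909474 (minus strand): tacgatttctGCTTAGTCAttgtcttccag
TXNRD1 chr12:104215670-104215699 (plus strand): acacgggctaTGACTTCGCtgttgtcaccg
TXNRD1 chr12:104215761-104215790 (plus strand): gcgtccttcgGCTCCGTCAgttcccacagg
TXNRD1 chr12:104286920-104286949 (plus strand): gtggatttctGCTTTGTCAttctgactctg

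The core of GCLM read on the opposite strand and began 34 bases before the start. The windows of TXNRD1 held a core on the gene's own strand 99 bases before the start, another on the opposite strand 8 bases before it, and one more on the opposite strand 102 bases before a second start of the gene. These matches describe the letters in the windows and not binding. HMOX1, FTH1 and AKR1B10 were without a window.

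The IRE was searched by its loop consensus in the 5′ UTRs of the ferritin transcripts (GENCODE 29 on GRCh38), both in exon 1. It is shown because it is the shared element of FTH1 and FTL, and the capitals mark the loop of 6 bases. The same consensus was present in the first 250 bases of 6.58% of 82672 protein-coding transcripts.

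FTH1 chr11:61967573-61967602 (minus strand): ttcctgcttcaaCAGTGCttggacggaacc
FTL chr19:48965335-48965364 (plus strand): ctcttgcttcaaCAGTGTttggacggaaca

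The sites lay at bases 59 to 88 of FTH1-201, whose 5′ UTR has 235 bases, and at bases 35 to 64 of FTL-201, whose 5′ UTR has 207.

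The 12 mono-cultures without RANKL held 23932472 to 36719047 estimated counts each and the 24 other libraries 9593426 to 15418211, so depth and culture cannot be told apart when both are compared. A level of 3 counts was at most 0.125 CPM (counts per 1e6 counts of the library) in the former and 0.313 in the latter, which covers counting error only. All 9 prostate epithelium markers were above 3 counts in every group. The summed MG63-like markers were between 3.01 and 8.11 CPM in every library of C4-2, C4-2B and DU145. The 9 macrophage and osteoclast markers summed to at most 14.4 CPM in 22Rv1, 22.2 to 33.1 in C4-2 and C4-2B and 57.4 to 91.5 in DU145 over all cultures, with 6 to 8 of the 9 above 3 counts in a group and TYROBP at or under it in every group. In 22Rv1 the MG63-like sum was 37.2 to 41.2 CPM in mono-culture and 53.6 to 55.7 with MG63 cells, and its part in the 22Rv1 results was not tested. One library stood apart. Replicate 2 of DU145 with MG63 cells differed from replicate 1 by a chi-square of 165 per degree of freedom, against 2.94 to 6.72 in the 23 other replicate pairs compared, so test results with MG63 cells that it changed are given without it too, and its own values stand beside those of its replicate. In bulk RNA, a lower level per cell and fewer cells of a kind cannot be told apart.

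In mono-culture, DU145 held the highest mean level (CPM) of 9 of the 10 genes, and 22Rv1 the highest of GCLC. Per length, in TPM (transcripts per 1e6, each transcript's counts divided by its length), FTH1 had the highest mean of the 10 in every line, at 5591 in DU145, 2634 in C4-2, 2631 in C4-2B and 1065 in 22Rv1. AKR1C1 and AKR1B10 were the lowest, at or under 2.98 TPM in every line. Further levels of single genes are in CPM and compare a gene with itself, while ratios of FTH1 to FTL are per length unless stated.

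**Figure D1:**
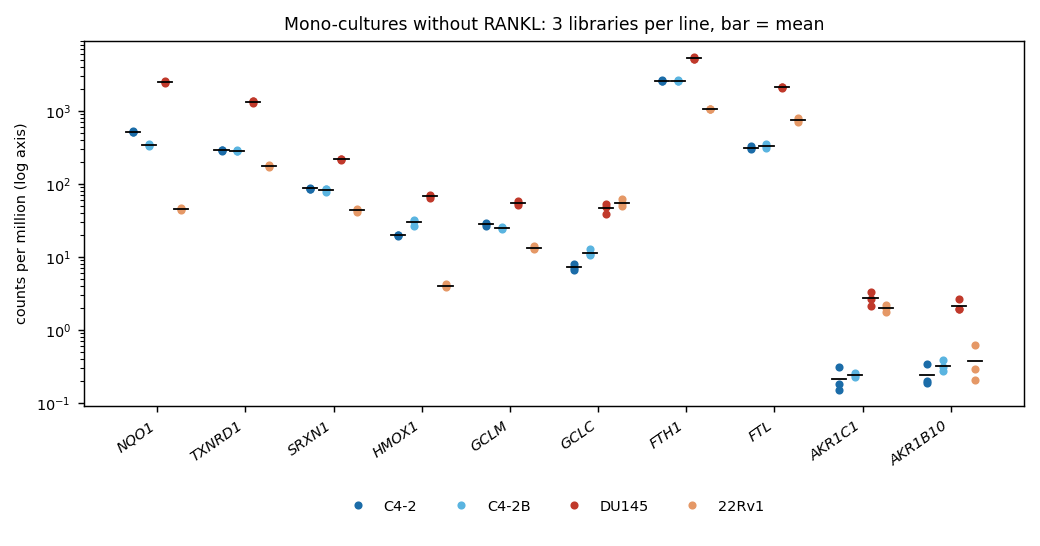
Level of each of the 10 genes in mono-culture without RANKL, in CPM on a log axis, with 1 point per library (3 per line) and a bar for the mean of each line. DU145 lies highest for every gene except GCLC, and NQO1 spans the widest range between lines, from 45.7 ± 1.95 in 22Rv1 to 2504 ± 59.5 in DU145 (mean ± SD, n = 3).

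NQO1 reduces quinones and is a common readout of NRF2. It was 2481, 2459.6 and 2572 CPM in the DU145 mono-cultures, 529, 516 and 523 in C4-2, 355, 331 and 338 in C4-2B and 47.6, 43.7 and 45.9 in 22Rv1. No library of one line overlapped those of another. DU145 exceeded 22Rv1 by a log2 fold change of 5.79 ± 0.08 (SE; edgeR adjusted p = 4e-18), and C4-2 exceeded its close relative C4-2B by 0.57 ± 0.06 (edgeR adjusted p = 1.38e-05).

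HMOX1, heme oxygenase, frees iron from heme. Its levels were 70.9, 64.8 and 68.3 CPM in DU145, 27.0, 31.2 and 31.8 in C4-2B, 19.4, 19.8 and 20.4 in C4-2 and 4.28, 3.91 and 4.03 in 22Rv1, again without overlap between lines. C4-2 and C4-2B stood in the opposite order to NQO1, with C4-2 lower by a log2 difference of -0.64 ± 0.07 (edgeR adjusted p = 7.39e-06).

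GCLM and GCLC are the modifier and the catalytic subunit of glutamate-cysteine ligase, which takes the first step of glutathione synthesis. GCLM measured 52.2, 54.6 and 58.9 CPM in DU145, 28.96, 28.1 and 27.1 in C4-2, 25.5, 24.2 and 24.8 in C4-2B and 14.0, 13.0 and 13.2 in 22Rv1. GCLC measured 55.7, 62.2 and 49.5 CPM in 22Rv1, 52.7, 39.3 and 48.5 in DU145, 10.9, 12.8 and 10.7 in C4-2B and 7.01, 6.67 and 8.06 in C4-2. The subunits of the same enzyme thus ordered the lines differently, with 22Rv1 lowest for GCLM and highest by mean for GCLC. GCLM in C4-2 and C4-2B lay 0.13 ± 0.07 apart on the log2 scale (edgeR adjusted p = 0.298), and GCLC in DU145 and 22Rv1 lay -0.23 ± 0.16 apart (edgeR adjusted p = 0.196), neither past the threshold. Counted over protein-coding transcripts only, GCLC was lower in DU145 than in 22Rv1 by -0.76 ± 0.12 (edgeR adjusted p = 3.56e-05). GCLC in C4-2 was below C4-2B by -0.71 ± 0.19 (edgeR adjusted p = 0.0169), but by -0.39 ± 0.14 over protein-coding transcripts, short of the threshold (0.0878), and the call was also lost with scaled TPM counts (0.227). It was lost without C4-2 mono-culture 1 (edgeR adjusted p = 0.0684), C4-2 mono-culture 2 (0.0702) or C4-2B mono-culture 2 (0.0789).

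TXNRD1 reduces thioredoxin and SRXN1 restores overoxidized peroxiredoxins. TXNRD1 was 1297, 1367 and 1379.7 CPM in DU145, 289, 284 and 295 in C4-2, 281, 293 and 288 in C4-2B and 183, 173 and 179 in 22Rv1. SRXN1 was 218, 222 and 215 CPM, 89.1, 85.4 and 87.0, 84.7, 78.8 and 84.9, and 44.0, 41.8 and 45.9 in the same order of lines. Both genes were highest in DU145 and lowest in 22Rv1. C4-2 and C4-2B overlapped for TXNRD1 and not for SRXN1, and neither gene passed between them (edgeR adjusted p = 0.876 for TXNRD1 and 0.842 for SRXN1).

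Of the ferritin chains, FTH1 was 5249.9, 5164 and 5451 CPM in DU145, 2639, 2597 and 2606 in C4-2, 2549, 2653 and 2594 in C4-2B and 1071, 1062 and 1062 in 22Rv1. FTL was 2101, 2154 and 2121 CPM in DU145, 718, 796 and 752 in 22Rv1, 315, 355 and 337 in C4-2B and 299, 329 and 311 in C4-2. The heavy chain was thus lowest in 22Rv1 and the light chain in the C4-2 pair, whose libraries overlapped for both genes (edgeR adjusted p = 0.779 and 0.245). Per length, the ratio of FTH1 to FTL was 7.36 ± 0.412 in C4-2, 6.89 ± 0.272 in C4-2B, 2.25 ± 0.0811 in DU145 and 1.26 ± 0.0948 in 22Rv1 (mean ± SD, n = 3). Both chains together took 0.741 ± 0.0138% of all counts in DU145, 0.293 ± 0.00106% in C4-2, 0.293 ± 0.00720% in C4-2B and 0.182 ± 0.00349% in 22Rv1.

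AKR1C1 and AKR1B10 are aldo-keto reductases that reduce steroids, retinoids and lipid aldehydes. AKR1C1 was 2.65, 2.17 and 3.34 CPM in DU145, 1.78, 2.22 and 1.98 in 22Rv1, 0.239, 0.255 and 0.225 in C4-2B and 0.314, 0.154 and 0.1802 in C4-2, close to the level of 3 counts in the C4-2 pair. AKR1B10 was 1.93, 1.92 and 2.65 CPM in DU145 and at or below 0.625 CPM in every library of the other lines. It reached the minimum of 100 counts in no sample and so stayed out of the tests, while in DU145 with MG63 cells it was 0.850 and 0.589 CPM, the second value from a library that stood apart, and differed by -1.56 ± 0.50 (log2) when tested without that minimum (edgeR adjusted p = 0.0424). Both have close relatives with which reads can be shared. AKR1C2 held up to 85.3% of the summed counts of AKR1C1 and AKR1C2, and AKR1B15 held 67.4 to 99.0% of those of AKR1B10 and AKR1B15, so both genes are uncertain. For ferritin this hardly arose, as 24 FTH1 pseudogenes held at most 0.978% and 16 FTL pseudogenes at most 1.57% of the counts summed with the gene.

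Tested pair by pair, 46 of 54 values of the 9 genes tested passed an adjusted p of 0.05 between lines in mono-culture, where 65.9% of all 80622 values of the 13437 genes did. Between C4-2 and C4-2B, 3 of 9 passed (NQO1, HMOX1 and GCLC) beside 13.6% of all genes. Between DU145 and either C4-2 or C4-2B all 9 passed and all 9 were higher in DU145 (background 78.3% and 79.0% in either direction, 39.3% and 39.7% higher in DU145). The median of the 9 log2 differences was -2.19 for C4-2 minus DU145, beside 0.0047 over all genes. Against 22Rv1, 9 of 9 differed from C4-2 (72.0%) and from C4-2B (72.5%), with 6 higher in each (background 35.6% for C4-2 and 35.7% for C4-2B) and 3 lower (36.4% and 36.8%). DU145 differed from 22Rv1 for 7 of 9 (79.6%), all 7 higher in DU145 (39.1%). The backgrounds are high, so the counts by themselves say little about these genes.

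Averaged over lines, 8 of 9 differed between BPCa and LPCa, near the background of 79.8%, with 3 higher (39.4% of all genes) and 5 lower (40.4%) in BPCa. For 6 genes the average joined opposite lines: NQO1, HMOX1, GCLM, TXNRD1, SRXN1 and FTH1 had DU145 highest, 22Rv1 lowest and both BPCa lines between them. For the other 3 tested genes both LPCa lines lay above both BPCa lines, and BPCa was lower by -3.24 ± 0.22 (log2) for AKR1C1, -2.42 ± 0.13 for GCLC and -1.90 ± 0.06 for FTL (edgeR adjusted p = 6.06e-10, 2.27e-11 and 1.35e-14). The small BPCa excess of FTH1, 0.20 ± 0.04 (edgeR adjusted p = 0.000392), became -0.034 ± 0.08 when its protein-coding transcripts alone were counted (edgeR adjusted p = 0.723).

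The genes that control NRF2 were read alongside. NFE2L2 itself was 86.1 ± 2.35 CPM in DU145, 55.0 ± 2.40 in C4-2, 50.6 ± 2.45 in C4-2B and 34.4 ± 1.94 in 22Rv1 (mean ± SD, n = 3), so it had the same highest and lowest line as NQO1. KEAP1, its inhibitor, was 71.2 ± 2.77 CPM in C4-2, 74.8 ± 1.61 in C4-2B and 72.3 ± 1.77 in DU145, but 34.7 ± 1.90 in 22Rv1. DU145 also held the most SQSTM1, the autophagy receptor that can sequester KEAP1, at 157 ± 1.95 CPM against 37.1 ± 1.76 in C4-2B, 28.7 ± 3.99 in C4-2 and 14.4 ± 0.0882 in 22Rv1. The same line was highest for the MAF partners MAFG (61.9 ± 0.941 CPM) and MAFK (75.1 ± 1.17) and for the repressor BACH1 (24.2 ± 1.14). Between DU145 and 22Rv1, 8 of 11 regulators were higher and 1 lower in DU145, as were 21 and 5 of 29 other NRF2 targets tested and 8 and 5 of 15 iron handling genes, beside 39.1% of all genes higher and 79.6% called in either direction. NFE2L2 did not pass between BPCa and LPCa (0.019 ± 0.07, edgeR adjusted p = 0.811).

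**Figure D2:**
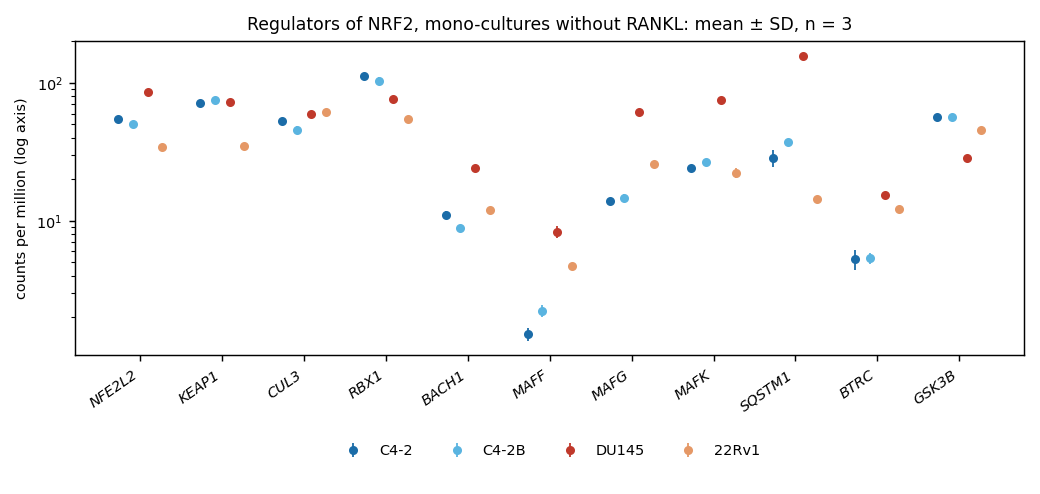
Levels of the 11 regulators of NRF2 in mono-culture without RANKL, in CPM on a log axis, as mean ± SD of 3 libraries per line. SQSTM1, MAFG, MAFK, MAFF, BACH1 and NFE2L2 lie highest in DU145, and KEAP1 lies lowest in 22Rv1.

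With MG63 cells, FTH1 rose in 3 of 4 lines and FTL in 3 of 4, HMOX1 rose in C4-2 and DU145, and TXNRD1 and GCLC fell in both LPCa lines. In all, 17 of 36 values passed against mono-culture, beside a background of 17.1% of all genes and lines, 12 of them higher (background 8.81%) and 5 lower (8.28%). Scaled to library size alone, 9 were higher (background 6.18%) and 6 lower (14.7%). By line they were 4 of 9 in C4-2 (10.1% of all genes), 2 of 9 in C4-2B (7.41%), 6 of 9 in DU145 (30.5%) and 5 of 9 in 22Rv1 (20.4%). Without replicate 2 of DU145 with MG63 cells, 22 of 36 passed, as did 23.9% of all genes and lines. By line that was 5 of 9 in C4-2 (background 23.9%), 4 of 9 in C4-2B (20.2%), 7 of 9 in DU145 (15.0%) and 6 of 9 in 22Rv1 (36.4%), so the background of every line moved with that library. Against the mono-cultures with RANKL, the control whose depth is like that of the co-cultures, 4 of 32 values passed (background 9.55%). Of these, 3 were among the 17, but FTL in DU145 was then lower and not higher. The median log2 difference of the 9 genes in C4-2, C4-2B, DU145 and 22Rv1 was 0.18, 0.11, 0.014 and 0.23, where that of all genes was -0.0085, -0.0017, -0.062 and 0.0010. Without that library the DU145 median was -0.15, of the opposite sign, beside -0.021 over all genes, and the other lines moved little (0.18, 0.11 and 0.23).

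FTH1 was 2639, 2597 and 2606 CPM in C4-2 mono-culture and 3520.0 and 3867 with MG63 cells. In C4-2B it was 2549, 2653 and 2594 CPM alone and 3957 and 3895 with them, and in DU145 5249.9, 5164 and 5451 alone and 7809.6 and 7934 with them. Every co-culture library of these 3 lines lay above every mono-culture library. The log2 fold changes were 0.61 ± 0.07 in C4-2, 0.66 ± 0.07 in C4-2B and 0.65 ± 0.07 in DU145 (edgeR adjusted p = 2.01e-05, 2.11e-05 and 1.8e-05). In 22Rv1 the libraries stood at 1071, 1062 and 1062 CPM alone and 1079.5 and 1124 with MG63 cells, also without overlap, a difference of 0.16 ± 0.07 not past the threshold (edgeR adjusted p = 0.101), and the change differed among the 4 lines (edgeR adjusted p = 0.00448). Without the DU145 library that stood apart, the DU145 change was 0.64 ± 0.05 (edgeR adjusted p = 1.52e-06) and the 22Rv1 change 0.16 ± 0.04, past the threshold (0.0096). Over protein-coding transcripts alone the difference among lines was not called (edgeR adjusted p = 0.0662). Against the RANKL mono-cultures, with all libraries, FTH1 stood at 0.25 ± 0.11 in C4-2, 0.30 ± 0.11 in C4-2B, 0.48 ± 0.11 in DU145 and 0.38 ± 0.11 in 22Rv1. Of these DU145 alone was called (edgeR adjusted p = 0.258, 0.2, 0.00951 and 0.0512), and the lines were not called different (0.608).

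FTL rose in C4-2, DU145 and 22Rv1. It was 299, 329 and 311 CPM in C4-2 alone and 384 and 414 with MG63 cells, 2101, 2154 and 2121 and 2628 and 3014 in DU145, and 718, 796 and 752 and 826 and 925 in 22Rv1. None of the co-culture libraries overlapped its mono-cultures, and the log2 fold changes were 0.46 ± 0.08, 0.48 ± 0.08 and 0.32 ± 0.08 (edgeR adjusted p = 0.00239, 0.00108 and 0.0134). In C4-2B it was 315, 355 and 337 CPM alone and 382 and 369 with MG63 cells, without overlap but not past the threshold (0.22 ± 0.09, edgeR adjusted p = 0.136), and the changes were not called different among lines (edgeR adjusted p = 0.303). The C4-2 and 22Rv1 changes were 0.46 ± 0.07 and 0.32 ± 0.07 without the DU145 library that stood apart. Without the library that stood apart, the DU145 change was 0.39 ± 0.08 (edgeR adjusted p = 0.0054) and C4-2B passed too (0.22 ± 0.07, 0.0327). Replicate 2 carried the C4-2 call (without it 0.40, edgeR adjusted p = 0.0556) and the 22Rv1 call (0.21, 0.247), and 22Rv1 also lost it without mono-culture 1 (0.0567) or when scaled to library size alone (0.0614). Against the RANKL mono-cultures, whose depth is like that of the co-cultures, FTL stood at 0.086 ± 0.10 in C4-2, 0.19 ± 0.10 in 22Rv1 and -0.34 ± 0.10 in DU145 (edgeR adjusted p = 0.792, 0.331 and 0.0326), so with that control and all libraries none of the 3 rises was called.

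Together the ferritin chains took 0.409 ± 0.0267% of counts in C4-2 with MG63 cells, 0.430 ± 0.00527% in C4-2B, 1.07 ± 0.0361% in DU145 (1.04% without the library that stood apart) and 0.198 ± 0.0102% in 22Rv1 (mean ± SD, n = 2). Compared with the mono-culture shares above, the lowest co-culture library was higher than the highest mono-culture library in all 4 lines. The ratio of FTH1 to FTL per length was 8.53 ± 0.194 in C4-2 and 9.64 ± 0.00993 in C4-2B, above every mono-culture of those lines, and 2.84 in replicate 1 of DU145, likewise above. In replicate 2, which stood apart and whose FTH1 transcripts were of another makeup, the ratio per length was equal by that measure but the ratio of counts was 2.63 against 2.97 in replicate 1. In 22Rv1 it was 1.13 ± 0.0447, just below every 22Rv1 mono-culture.

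**Figure D3:**
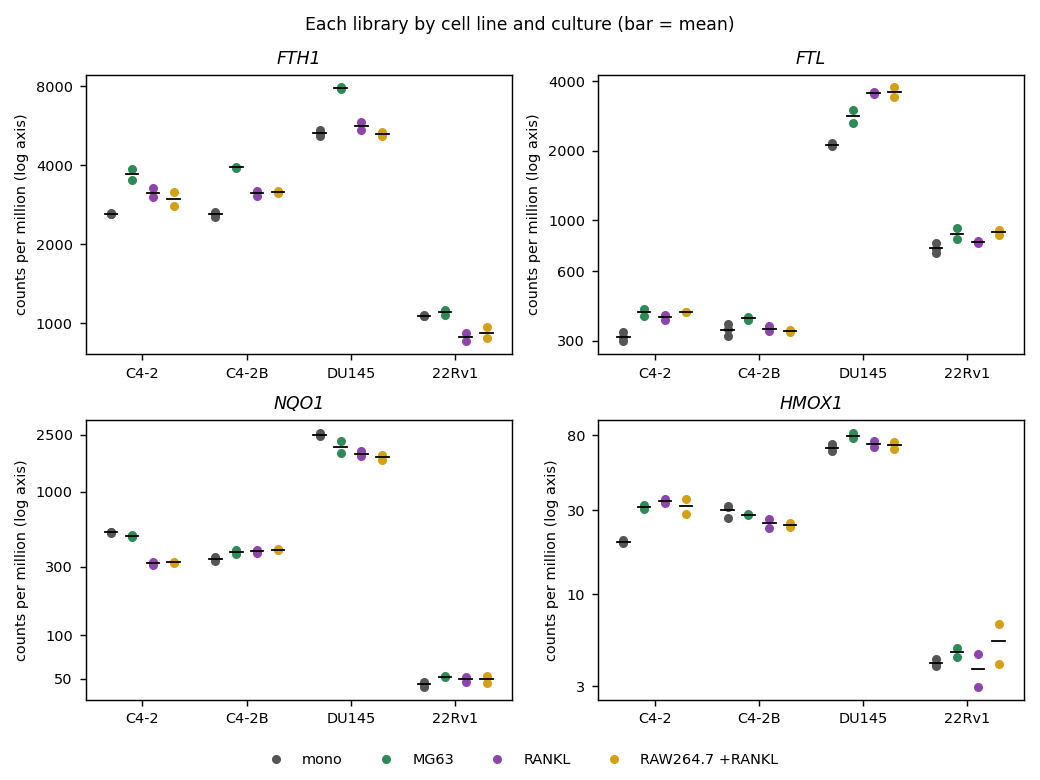
Level of FTH1, FTL, NQO1 and HMOX1 in every library, in CPM on log axes, by cell line and culture, with a bar for each group mean. The FTH1 libraries with MG63 cells lie above the mono-cultures in every line, least in 22Rv1, and HMOX1 stands above mono-culture in C4-2 in all 3 other cultures.

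HMOX1 in C4-2 was 19.4, 19.8 and 20.4 CPM alone and 32.1 and 30.3 with MG63 cells, a log2 fold change of 0.76 ± 0.08 (edgeR adjusted p = 1.07e-05). In DU145 it was 70.9, 64.8 and 68.3 CPM alone and 82.3 and 77.0 with MG63 cells (0.30 ± 0.07, edgeR adjusted p = 0.00661), and 0.35 ± 0.08 without the library that stood apart (0.00772). Against the RANKL mono-cultures the C4-2 difference was -0.10 ± 0.12 and that of DU145 0.16 ± 0.12, neither called (edgeR adjusted p = 0.806 and 0.352), so with that control the C4-2 rise was not called. The DU145 call was lost without the filter on low counts (0.0505) and with scaled TPM counts (0.0959). C4-2B, the closest relative of C4-2, showed 27.0, 31.2 and 31.8 CPM alone and 28.1 and 28.5 with MG63 cells, overlapping ranges with a difference of -0.021 ± 0.08 (edgeR adjusted p = 0.937). In 22Rv1 it was 4.28, 3.91 and 4.03 CPM alone and 4.98 and 4.40 with MG63 cells, a difference of 0.32 ± 0.11 (edgeR adjusted p = 0.123). The test among lines gave an edgeR adjusted p of 0.00145.

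AKR1C1 had the largest log2 fold change of the 9 tested genes with MG63 cells. In C4-2 it was 0.314, 0.154 and 0.1802 CPM alone and 1.93 and 3.27 with MG63 cells, a rise of 3.61 ± 0.34 (edgeR adjusted p = 6e-06) from counts of 4.26 to 10.5 per mono-culture library. With RANKL alone the C4-2 libraries held 0.0389 and 0.0454 CPM, too few counts for a test against that control. Summed with AKR1C2, which may share its reads, the change was 2.40. In C4-2B it stayed at or under 0.277 CPM in every library, and in DU145 and 22Rv1 the differences were 0.28 ± 0.28 and 0.23 ± 0.29, not past the threshold (edgeR adjusted p = 0.468 and 0.645), and 0.11 ± 0.37 in DU145 without the library that stood apart. The changes differed among lines (edgeR adjusted p = 0.000233).

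In the opposite direction, GCLC in DU145 was 52.7, 39.3 and 48.5 CPM alone and 22.7 and 14.8 with MG63 cells, and in 22Rv1 55.7, 62.2 and 49.5 alone and 24.9 and 25.2 with them. Neither pair of groups overlapped, and the log2 changes were -1.24 ± 0.21 and -1.04 ± 0.20 (edgeR adjusted p = 0.000721 and 0.00155). The DU145 change was -0.97 ± 0.22 without the library that stood apart (edgeR adjusted p = 0.00709) and -1.59 without the other replicate. C4-2 (-0.42 ± 0.25) and C4-2B (0.11 ± 0.22) passed no threshold (edgeR adjusted p = 0.357 and 0.84), and the test among lines gave 0.0189. Many GCLC counts lay in transcripts that do not code for protein, and the coding share had medians of 52.6% in C4-2, 39.7% in 22Rv1, 30.4% in C4-2B and 29.7% in DU145 over 9 libraries each. Over coding transcripts alone, GCLC still fell in both lines, with log2 changes of -0.87 ± 0.16 in DU145 and -1.29 ± 0.15 in 22Rv1 (edgeR adjusted p = 0.00141 and 3.69e-05). With scaled TPM counts the 22Rv1 change was -0.93 and not called (edgeR adjusted p = 0.161). Against the RANKL mono-cultures, with all libraries, GCLC was -0.68 ± 0.35 in DU145 and -0.74 ± 0.34 in 22Rv1, neither called (edgeR adjusted p = 0.175 and 0.243). The DU145 difference from that control was -0.41 ± 0.33 without the library that stood apart.

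**Figure D4:**
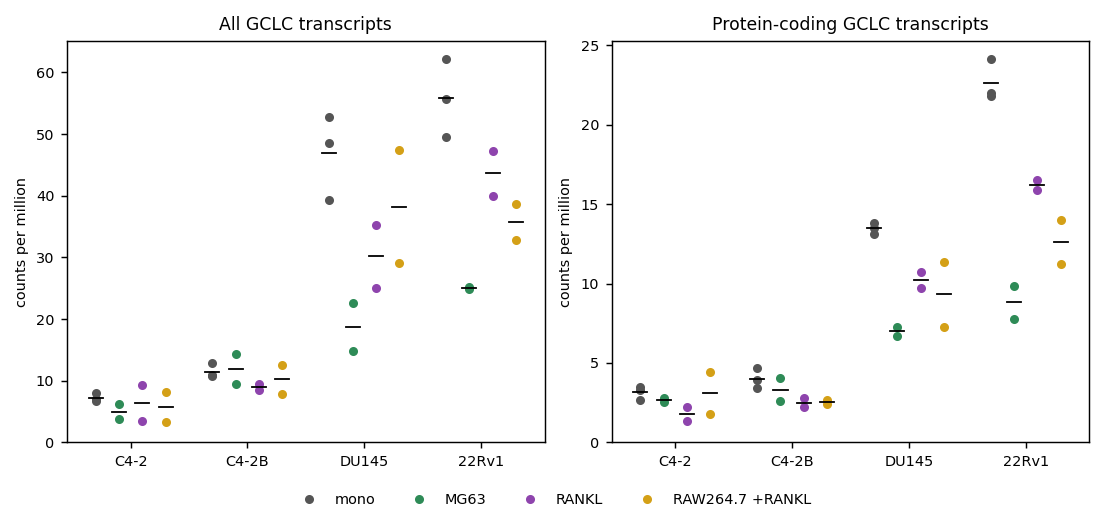
GCLC in every library by cell line and culture, in CPM, over all its transcripts and over its protein-coding transcripts, with a bar for each group mean. In both panels the MG63 co-cultures of DU145 and 22Rv1 lie below the mono-cultures of the same line.

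TXNRD1 in DU145 was 1297, 1367 and 1379.7 CPM alone and 1009 and 689 with MG63 cells, a log2 change of -0.59 ± 0.11 (edgeR adjusted p = 0.00132). The lower value came from the library that stood apart, and the change was -0.34 ± 0.05 without it (edgeR adjusted p = 0.000231) and -0.91 with it alone. In 22Rv1 the libraries were 183, 173 and 179 CPM alone and 133 and 126 with MG63 cells (-0.35 ± 0.11, edgeR adjusted p = 0.0319). This call was lost without mono-culture 1 (0.0778) or 3 (0.0738), or without either co-culture replicate (0.116 and 0.157). Against the RANKL mono-cultures TXNRD1 was -0.16 ± 0.14 in DU145 and -0.25 ± 0.14 in 22Rv1, neither called with all libraries (edgeR adjusted p = 0.425 and 0.37). Without the library that stood apart it was 0.092 ± 0.06 in DU145 and -0.25 ± 0.06 in 22Rv1, a setting taken up below. The 22Rv1 change against mono-culture was -0.35 ± 0.04 without that library. C4-2 and C4-2B differed by 0.064 ± 0.11 and 0.086 ± 0.11, and the changes differed among lines (edgeR adjusted p = 0.0123).

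SRXN1, its partner in peroxide defence, went the other way in 22Rv1, from 44.0, 41.8 and 45.9 CPM alone to 50.4 and 57.1 with MG63 cells (0.40 ± 0.07, edgeR adjusted p = 0.00068). In DU145 it was 218, 222 and 215 CPM alone and 176 and 196 with MG63 cells. This difference of -0.16 ± 0.07 was not past the threshold (edgeR adjusted p = 0.078), but it was at -0.23 ± 0.06 without the library that stood apart (0.0254). C4-2 and C4-2B differed by 0.052 ± 0.07 and 0.048 ± 0.07 on the log2 scale, and the test among lines gave an edgeR adjusted p of 0.00606.

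NQO1 was 2481, 2459.6 and 2572 CPM in DU145 alone and 1869 and 2255 with MG63 cells, a log2 change of -0.21 ± 0.07 (edgeR adjusted p = 0.0366). That call was lost when any of 8 single libraries was left out, 3 of them the DU145 mono-cultures and 1 replicate 1 of the co-culture, without which the change was -0.088 (0.152). Without replicate 2 it was -0.34 ± 0.05 (0.000375). The call was also lost under 6 other settings with the same control, with changes of -0.23 to -0.16 and adjusted p of 0.0502 to 0.114: RLE size factors, DESeq2, the replicate block, a fit of all 36 samples, protein-coding transcripts and scaled TPM counts. Against the RANKL mono-cultures the difference in DU145 turned to 0.15 ± 0.10 (0.283), or 0.019 ± 0.07 without replicate 2. In 22Rv1 NQO1 rose from 47.6, 43.7 and 45.9 CPM to 51.1 and 51.8 (0.28 ± 0.07, edgeR adjusted p = 0.0147), a call lost without mono-culture 2 (0.0562), without either co-culture replicate (0.0547 and 0.154), scaled to library size alone (0.118) or without the filter (0.0577), and 0.13 ± 0.11 against the RANKL mono-cultures (0.581). C4-2 differed by 0.018 ± 0.07 and C4-2B by 0.23 ± 0.07 (edgeR adjusted p = 0.924 and 0.0677), and the test among lines gave 0.0126. The 22Rv1 change was 0.28 ± 0.05 without the library that stood apart. C4-2B passed without the library that stood apart (0.23 ± 0.04, 0.00099). GCLM passed in C4-2B, where it went from 25.5, 24.2 and 24.8 CPM to 28.6 and 30.4 (0.31 ± 0.08, edgeR adjusted p = 0.0321), a call lost when any of 7 single libraries was left out (0.0513 to 0.213), and its changes were not called different among lines (0.164). The call was also lost scaled to library size alone, without the filter, with the replicate block and with scaled TPM counts (0.0587 to 0.816). Its C4-2B change was 0.31 ± 0.06 without the library that stood apart. In C4-2 GCLM differed by 0.18 ± 0.08 (edgeR adjusted p = 0.196), and it passed there without the library that stood apart (0.18 ± 0.06, 0.0398) and over protein-coding transcripts (0.29 ± 0.06, 0.00564), where the changes differed among lines (0.00539).

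**Figure D5:**
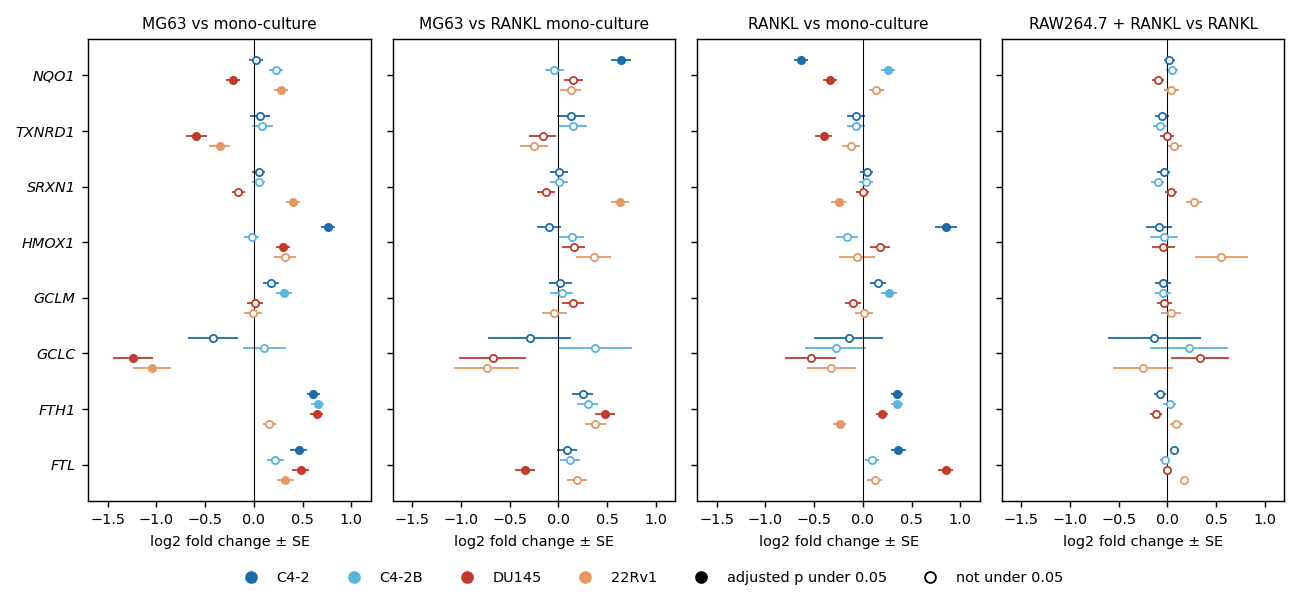
Log2 fold change ± SE of 8 genes in each line. In order, the panels compare MG63 co-culture with mono-culture, MG63 co-culture with RANKL mono-culture, RANKL mono-culture with mono-culture, and RAW264.7 co-culture with RANKL mono-culture. Filled points passed an adjusted p of 0.05, and 0 of the points of the RAW264.7 comparison are filled.

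The change with MG63 cells differed among the 4 lines for 7 of 9 genes, beside 14.5% of all genes, and for 8 of 9 without the DU145 library that stood apart, when GCLM joined them (background 24.3%). The adjusted p among lines was then 2.76e-05 for TXNRD1, 4.02e-05 for NQO1, 8.24e-05 for FTH1, 0.00014 for AKR1C1, 0.000465 for HMOX1, 0.000687 for SRXN1, 0.009 for GCLM, 0.0136 for GCLC and 0.277 for FTL. Only 3 of the 17 calls were above 2-fold, AKR1C1 in C4-2 and GCLC in DU145 and 22Rv1. The mono-cultures with RANKL gave a second control. The 4 values that passed against them were FTH1 in DU145 at 0.48 ± 0.11, NQO1 in C4-2 at 0.64 ± 0.10, SRXN1 in 22Rv1 at 0.63 ± 0.09 and FTL in DU145 at -0.34 ± 0.10 (edgeR adjusted p = 0.00951, 0.00375, 0.00193 and 0.0326). FTL in DU145 thus changed direction with the control, as did HMOX1 in C4-2 and NQO1 in DU145, both then short of the threshold. FTH1 in C4-2 and C4-2B was 0.25 ± 0.11 and 0.30 ± 0.11 above that control (edgeR adjusted p = 0.258 and 0.2). GCLM in C4-2B (0.035 ± 0.12, edgeR adjusted p = 0.962) and the calls of HMOX1, TXNRD1 and NQO1 given above were also lost. GCLC was -0.68 ± 0.35 in DU145 and -0.74 ± 0.34 in 22Rv1 against it (edgeR adjusted p = 0.175 and 0.243). With this control the change differed among lines for 2 of 8 genes, NQO1 and SRXN1, beside 15.5% of all genes, and not for FTH1, HMOX1, GCLC or TXNRD1 (edgeR adjusted p = 0.608, 0.38, 0.323 and 0.317). Without the DU145 library that stood apart, 9 of 32 values passed against this control (background 19.1%). FTH1 then passed in all 4 lines, at 0.25 ± 0.06 in C4-2, 0.30 ± 0.06 in C4-2B, 0.47 ± 0.08 in DU145 and 0.38 ± 0.07 in 22Rv1 (edgeR adjusted p = 0.0179, 0.00836, 0.000873 and 0.00114). The other 5 were NQO1 in C4-2 (0.64 ± 0.06), FTL in DU145 (-0.44 ± 0.08) and 22Rv1 (0.19 ± 0.06), and SRXN1 (0.63 ± 0.08) and TXNRD1 (-0.25 ± 0.06) in 22Rv1. GCLC in DU145 was -0.41 ± 0.33 (edgeR adjusted p = 0.42), and 4 of 8 genes differed among lines (background 37.4%).

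Of the 29 other NRF2 targets tested, 9 rose and 1 fell with MG63 cells in C4-2, 6 rose and 0 fell in C4-2B, 6 rose and 5 fell in DU145, and 10 rose and 2 fell in 22Rv1. All genes were called in 10.1%, 7.41%, 30.5% and 20.4% of tests in that order, so DU145 stood near its background. Their median log2 differences were 0.18, 0.076, -0.069 and 0.085. Without the library that stood apart, 14 rose and 2 fell in C4-2 (background 23.9%), 10 rose and 1 fell in C4-2B (background 20.2%), 2 rose and 5 fell in DU145 (background 15.0%) and 11 rose and 3 fell in 22Rv1 (background 36.4%). BLVRB, a biliverdin reductase, rose by 0.53 ± 0.07 (log2) in C4-2, 0.53 ± 0.07 in C4-2B and 0.59 ± 0.07 in 22Rv1. CBR1, a carbonyl reductase, rose by 0.37 ± 0.05, 0.34 ± 0.05 and 0.40 ± 0.05 in the same lines. SLC7A11, which imports the cystine from which glutathione is made, fell by 0.68 ± 0.11 in C4-2, 1.00 ± 0.13 in DU145 (0.73 ± 0.11 without the library that stood apart) and 2.84 ± 0.15 in 22Rv1, where it went from 29.6, 28.7 and 29.8 CPM to 3.85 and 3.70. These calls had edgeR adjusted p between 1.19e-08 and 0.000922. With RANKL alone, against the same mono-cultures, BLVRB also rose, by 0.39 ± 0.07, 0.48 ± 0.07 and 0.35 ± 0.07 in C4-2, C4-2B and 22Rv1, and CBR1 by 0.37 ± 0.05 in C4-2B. SLC7A11 fell there by 0.36 ± 0.11 in C4-2, 0.93 ± 0.11 in C4-2B, 0.48 ± 0.11 in DU145 and 0.82 ± 0.12 in 22Rv1 (edgeR adjusted p of these 8 calls up to 0.0179). The difference between the 2 cultures was not tested for these genes.

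Among the 15 iron handling genes tested, 3 rose in C4-2, 2 in C4-2B and 1 each in DU145 and 22Rv1, while 2 fell in DU145 and 1 in 22Rv1, with median log2 differences of 0.039, -0.0071, -0.13 and -0.049 in that order. With all libraries, the shares of iron handling genes called in DU145 and 22Rv1 were below the backgrounds just given. Without the library that stood apart they were above, as 2 rose and 1 fell in DU145 (background 15.0%), 3 rose and 4 fell in 22Rv1 (background 36.4%), 3 rose and 1 fell in C4-2 (background 23.9%) and 4 rose and 2 fell in C4-2B (background 20.2%), and the DU145 median was -0.015. LCN2, a secreted carrier of iron-binding siderophores, was 0.0816, 0.297 and 0.231 CPM in C4-2 alone and 27.8 and 26.2 with MG63 cells, and 0.336, 0 and 0 and 37.9 and 33.6 in C4-2B. It also rose in DU145, from 0.426, 0.743 and 0.658 CPM to 9.75 and 5.84 (3.75 ± 0.45, edgeR adjusted p = 0.000123; 4.06 ± 0.47 without the library that stood apart), and was 0, 0 and 0 and 0.226 and 0 in 22Rv1, where it was not called. TFRC, the receptor that takes up transferrin-bound iron, rose by 0.29 ± 0.08 in C4-2 (edgeR adjusted p = 0.0419), and without the library that stood apart it passed in all 4 lines (0.22 to 0.30). ACO1, an iron regulatory protein that binds the IRE, rose by 0.49 ± 0.06 in 22Rv1 (5.33e-05). NCOA4, which delivers ferritin to the lysosome, fell by 0.48 ± 0.12 in DU145 (0.0097), but by 0.18 ± 0.06, short of the threshold, without the library that stood apart (0.0616).

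NFE2L2 passed in 0 of 4 lines with MG63 cells, where its log2 differences were 0.19 ± 0.11 in C4-2, 0.16 ± 0.11 in C4-2B, -0.23 ± 0.11 in DU145 and 0.23 ± 0.11 in 22Rv1 (edgeR adjusted p = 0.313, 0.454, 0.122 and 0.157). Without the library that stood apart it passed in C4-2 (0.19 ± 0.05, 0.0178) and 22Rv1 (0.23 ± 0.06, 0.00615) and differed by 0.020 ± 0.07 in DU145. KEAP1 rose in C4-2 by 0.29 ± 0.06 and in 22Rv1 by 0.50 ± 0.06 (edgeR adjusted p = 0.00649 and 5.59e-05), and without that library it passed in all 4 lines. BACH1, which represses HMOX1 and ferritin genes, fell by 0.40 ± 0.10 in DU145 and 0.34 ± 0.11 in 22Rv1 (0.00801 and 0.0382), and the DU145 call was lost without that library (-0.26 ± 0.11, 0.118). SQSTM1 rose by 0.70 ± 0.18 in C4-2B and 0.59 ± 0.17 in DU145 (0.0254 and 0.0174), but its DU145 libraries stood at 159, 157 and 155 CPM alone and 161 and 293 with MG63 cells. The DU145 rise rested on the library that stood apart (0.11 ± 0.12 without it, edgeR adjusted p = 0.601), and without it SQSTM1 passed in C4-2 (0.55 ± 0.11, 0.00171).

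RANKL alone was compared with the same mono-cultures, so both comparisons share their controls. Here 14 of 36 values passed, beside 20.7% of all genes and lines, 8 of them higher (background 10.3%) and 6 lower (10.5%). Scaled to library size alone, 5 were higher (background 7.36%) and 6 lower (16.1%). There were 4 of 9 in C4-2 (18.3% of all genes), 3 in C4-2B (14.4%), 5 in DU145 (32.5%) and 2 in 22Rv1 (17.7%), the last near its background. The median log2 difference of the 9 genes in C4-2, C4-2B, DU145 and 22Rv1 was 0.039, 0.031, -0.10 and -0.063, where that of all genes was -0.023, -0.023, -0.011 and -0.013. NQO1 fell in C4-2 and DU145 and rose in C4-2B, FTL rose in C4-2 and DU145, and HMOX1 rose in C4-2.

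NQO1 in C4-2 was 529, 516 and 523 CPM without RANKL and 325 and 311 with it, a log2 change of -0.63 ± 0.07 (edgeR adjusted p = 7.92e-07). DU145 fell from 2481, 2459.6 and 2572 CPM to 1927 and 1767 (-0.34 ± 0.07, edgeR adjusted p = 0.000653). C4-2B went the other way, from 355, 331 and 338 CPM to 394 and 377 (0.26 ± 0.07, edgeR adjusted p = 0.0142). The close relatives C4-2 and C4-2B thus had separate NQO1 levels without RANKL, C4-2 the higher, and with RANKL C4-2B was the higher. The changes differed among lines (edgeR adjusted p = 5.34e-07). The C4-2B call was lost without its mono-culture 3 (0.0517) or either RANKL replicate (0.114 and 0.0753), and when scaled to library size alone, without the filter or with scaled TPM counts (0.0707, 0.0812 and 0.0535).

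FTL in DU145 was 2101, 2154 and 2121 CPM without RANKL and 3592 and 3532 with it (0.85 ± 0.07, edgeR adjusted p = 2.91e-09), and in C4-2 299, 329 and 311 and 370.2 and 389 (0.36 ± 0.07, edgeR adjusted p = 0.00103). FTH1 rose in DU145 by 0.19 ± 0.06, from 5249.9, 5164 and 5451 CPM to 5833 and 5429 with overlapping ranges (edgeR adjusted p = 0.0226). The ratio of heavy to light chain per length there was 1.48 ± 0.0794, below every DU145 mono-culture. That FTH1 call was lost without mono-culture 2 (0.0704) or RANKL replicate 1, when the change was 0.12 (0.339). It was also lost over protein-coding transcripts (0.075 ± 0.12, 0.682) and scaled to library size alone (0.090, 0.259). FTH1 also rose in C4-2, to 3016 and 3264 CPM (0.35 ± 0.06), and in C4-2B, to 3200.3 and 3061 CPM (0.35 ± 0.06; edgeR adjusted p = 0.000364 and 0.000493). In 22Rv1 it fell from 1071, 1062 and 1062 CPM to 854 and 919 (-0.24 ± 0.07, edgeR adjusted p = 0.0121), a call lost without RANKL replicate 1 (0.158) or over protein-coding transcripts (-0.16 ± 0.13, 0.42). Both ferritin genes differed in their RANKL change among lines (edgeR adjusted p = 4.33e-05 for FTH1 and 9.52e-06 for FTL).

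HMOX1 in C4-2 was 19.4, 19.8 and 20.4 CPM without RANKL and 33.1 and 34.5 with it (0.85 ± 0.11, edgeR adjusted p = 4.81e-06), beside the 32.1 and 30.3 CPM of the MG63 co-cultures. In C4-2B it was 23.8 and 26.8 CPM with RANKL (-0.16 ± 0.11, edgeR adjusted p = 0.369), and the test among lines gave 0.000104. The MG63 comparison used the same mono-cultures, so this is not an independent repeat of the difference between C4-2 and C4-2B. TXNRD1 fell in DU145, from 1297, 1367 and 1379.7 CPM to 981 and 915 (-0.40 ± 0.09, edgeR adjusted p = 0.00111). AKR1C1 also fell there, to 1.45 and 0.802 CPM (-1.17 ± 0.39, edgeR adjusted p = 0.024), and the call was lost without RANKL replicate 2 (-0.80, 0.262) or with scaled TPM counts (0.203). GCLM in C4-2B rose to 28.9 and 27.6 CPM (0.27 ± 0.08, edgeR adjusted p = 0.0339) and lost the call without any of 5 single libraries (0.055 to 0.191), scaled to library size alone (0.146), without the filter (0.166) or with scaled TPM counts (0.337). SRXN1 in 22Rv1 fell to 33.6 and 38.8 CPM (-0.25 ± 0.07, edgeR adjusted p = 0.021), lost without mono-culture 3 (0.0883) or RANKL replicate 1 (-0.16, 0.309) or with scaled TPM counts (0.0786). GCLC passed in 0 of 4 lines, with log2 differences from -0.54 ± 0.26 to -0.15 ± 0.35.

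The change with RANKL differed among lines for 4 of 9 genes (NQO1, FTL, FTH1 and HMOX1), beside 32.6% of all genes, and for 7 without RANKL replicate 2 of 22Rv1 (background 27.9%). Among the 11 regulators, KEAP1 rose in C4-2 by 0.58 ± 0.08, in C4-2B by 0.23 ± 0.08 and in 22Rv1 by 0.48 ± 0.08 and fell in DU145 by 0.32 ± 0.08 (edgeR adjusted p = 6.95e-06, 0.0497, 0.00017 and 0.00318). Its C4-2 libraries were 69.7, 69.4 and 74.3 CPM without RANKL and 100.3 and 100.3 with it. MAFK fell in DU145 from 75.9, 73.8 and 75.7 CPM to 33.6 and 37.3 (-0.98 ± 0.13, edgeR adjusted p = 2.95e-06), while NFE2L2 passed in 0 of 4 lines. Of the 29 other NRF2 targets, 5 rose and 1 fell in C4-2, 6 and 2 in C4-2B, 6 and 7 in DU145, and 7 and 2 in 22Rv1, beside 18.3%, 14.4%, 32.5% and 17.7% of all genes, and their median log2 differences were 0.056, 0.11, -0.15 and 0.088. The 4 with the smallest p in DU145 went both ways: EPHX1, an epoxide hydrolase, fell by 0.84 ± 0.06 and the peroxide scavenger PRDX1 by 0.73 ± 0.08, while the carbonyl reductases CBR1 and CBR3 rose by 0.61 ± 0.05 and 1.44 ± 0.17 (edgeR adjusted p = 4.85e-10, 5.39e-08, 1.22e-09 and 5.29e-07). Of 15 iron handling genes, 3 fell in C4-2 and 3 in C4-2B with 0 higher, while 4 rose and 2 fell in DU145 and 3 rose and 1 fell in 22Rv1, against the same backgrounds, which the C4-2 share was near, and with medians of -0.10, 0.070, 0.15 and 0.11. ACO1 rose by 0.77 ± 0.06 in DU145 and 0.58 ± 0.07 in 22Rv1 (edgeR adjusted p = 1.44e-10 and 8.24e-07).

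Adding RAW264.7 cells to RANKL-treated cultures was tested against RANKL mono-cultures of like depth, and 0 of 32 values of the 8 genes tested passed in edgeR, where 22 of 46100 values of all genes did (0.0477%). An unadjusted p under 0.05 was reached by 2 of the 32 in edgeR and by 3 in DESeq2, which also called 0. The log2 differences ran from -0.25 to 0.55, both ends from low or scattered genes of 22Rv1: GCLC was 40.0 and 47.3 CPM with RANKL and 38.6 and 32.8 with RAW264.7 cells, and HMOX1 2.97 and 4.59 and 6.75 and 4.02. For the abundant genes the errors were small. FTH1 differed by -0.076 ± 0.06 in C4-2, 0.022 ± 0.06 in C4-2B, -0.12 ± 0.06 in DU145 and 0.092 ± 0.07 in 22Rv1, and NQO1 by 0.020 ± 0.06, 0.046 ± 0.06, -0.097 ± 0.06 and 0.038 ± 0.08. AKR1C1 and AKR1B10 were under the count minimum in these 16 libraries, and the changes were called different among lines for 0 of 8 genes (2 at an unadjusted p under 0.05; 0.0347% of all genes called).

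The table is per transcript, which shows what the gene sums hold. SRXN1 and FTL had 1 transcript each, and GCLM-201 and HMOX1-201 held medians of 96.5% and 96.7% of their genes' counts over 36 libraries. NQO1-206, a short coding form, held 57.9%, and TXNRD1-203 38.8% of a gene with 24 transcripts. FTH1 was spread over 11 transcripts. FTH1-210, annotated for nonsense-mediated decay, held a median of 33.1%, and FTH1-201, which carries the IRE shown above, 28.9%. In the library that stood apart FTH1-201 held 3.98%, FTH1-210 0.289% and FTH1-207 55.5%, against 24.7%, 31.0% and 17.6% in its replicate, while the gene total was nearly the same in both (7809.6 and 7934 CPM).

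As a description, levels as log2(CPM + 1) were compared over the 16 group means, which share lines and so are not independent. Of 13454 genes, those most like NQO1 by Pearson r were RTN4 (0.994), GCLM (0.993), YY1AP1 (0.992), MAP7D3 (0.992) and ADA (0.991). Among the members, HMOX1 was most like FTH1 (0.980), TXNRD1 most like SRXN1 (0.964) and SRXN1 most like NQO1 (0.965). GCLC stood apart from its partner subunit GCLM (-0.173) and from NQO1 (-0.166) and was most like FTL (0.702).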

How the data were processed

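Per the labels and methods, total RNA of the PCa cells went into strand-specific libraries. The submitters' processing notes name FastQC, kallisto and hg19 without versions. The authors deposited kallisto estimated counts per transcript (161149 lines, 159837 transcripts, with 1312 lines that repeat a transcript identically left out), not normalized. GENCODE 29 on GRCh38 held 95.4% of the transcripts and gave coordinates, lengths and types. All 36 columns were mapped by their labels. The 6878 transcripts without a symbol (0.526 to 0.764% of counts) stayed in the totals of CPM only.

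Counts were summed per symbol, rounded and tested in edgeR 4.0.16 (R 4.3.3; TMM, glmQLFit, glmQLFTest) with 1 mean per line and culture. Genes with at least 100 counts in 1 fitted sample were kept: 13437 for the 20 samples without RANKL, 13454 for all 36 (RANKL effect) and 11525 for the 16 with RANKL. Benjamini-Hochberg adjustment ran over all genes, with calls at an adjusted p under 0.05. The study's own rule, 2-fold and p under 0.05, was an alternative, with its p read here as unadjusted, which the study does not state. Other alternatives were DESeq2 1.42.0, other scalings, no filter, the replicate block, the RANKL control and each library left out. Coding transcripts only, scaled TPM counts (the form the study's methods name), members summed with near copies and the RANKL control without replicate 2 of DU145 with MG63 cells were chosen after seeing the data.

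Members and lists were chosen with earlier results of these data known. By rule, all members and NRF2 regulators may be named, of the other targets and iron handling genes at most the 4 smallest p per comparison, and the 5 genes most like NQO1. FTH1-207 was named after its values were seen.

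On simulated data (13437 genes, MG63 against mono-culture in C4-2), the edgeR fit called 49 of 67 genes changed 1.5-fold, 57 of 67 changed 2-fold and 63 of 66 changed 4-fold, and 5 of 13237 unchanged genes. Python 3.11.15 with pandas 2.3.3 and matplotlib 3.10.9 made tables and figures.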

Additional observations from a re-analysis of the deposited data

Results flagged for a closer look

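The values here were singled out because the change of a gene against mono-culture differed among the 4 lines by an edgeR F test of the 3 differences, adjusted over all genes. With MG63 cells the adjusted p was 0.000233 for AKR1C1, whose log2 change was 3.61 ± 0.34 in C4-2 and -1.06 ± 0.64 in C4-2B. It was 0.00145 for HMOX1 (0.76 ± 0.08 in C4-2, -0.021 ± 0.08 in C4-2B) and 0.00448 for FTH1 (0.66 ± 0.07 in C4-2B, 0.16 ± 0.07 in 22Rv1). SRXN1 had 0.00606 (0.40 ± 0.07 in 22Rv1, -0.16 ± 0.07 in DU145, or -0.23 ± 0.06 without its replicate 2 with MG63 cells) and TXNRD1 0.0123 (0.086 ± 0.11 in C4-2B, -0.59 ± 0.11 in DU145, or -0.34 ± 0.05 without that replicate). NQO1 had 0.0126 (0.28 ± 0.07 in 22Rv1, -0.21 ± 0.07 in DU145, or -0.34 ± 0.05 without it) and GCLC 0.0189 (0.11 ± 0.22 in C4-2B, -1.24 ± 0.21 in DU145, or -0.97 ± 0.22 without it). Without that replicate all 7 still differed among lines (adjusted p = 2.76e-05 to 0.0136). Against the RANKL mono-cultures FTH1, HMOX1, GCLC and TXNRD1 were not called different among lines (adjusted p = 0.608, 0.38, 0.323 and 0.317), and without that replicate the first 3 still were not (0.277, 0.187 and 0.192). Scaled TPM counts lost HMOX1, TXNRD1 and GCLC (0.0663, 0.0851 and 0.206), protein-coding transcripts FTH1 (0.0662) and the fit of all 36 samples GCLC (0.052). AKR1C1 was under the count minimum with the RANKL control and with protein-coding transcripts.

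With RANKL the adjusted p was 5.34e-07 for NQO1 (-0.63 ± 0.07 in C4-2, 0.26 ± 0.07 in C4-2B), 9.52e-06 for FTL (0.85 ± 0.07 in DU145, 0.093 ± 0.07 in C4-2B), 4.33e-05 for FTH1 (0.35 ± 0.06 in C4-2, -0.24 ± 0.07 in 22Rv1) and 0.000104 for HMOX1 (0.85 ± 0.11 in C4-2, -0.16 ± 0.11 in C4-2B). Both comparisons use the same mono-cultures. The groups had 2 or 3 libraries, too few for a test of single outlying samples.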

How the results depend on the processing

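At 2-fold and an unadjusted p under 0.05, 3 of 9 values passed between BPCa and LPCa (8 by the adjusted p), 3 of 36 with MG63 cells (17) and 2 of 36 with RANKL (14). With RANKL mono-cultures as control, 4 of 32 values passed with MG63 cells, 3 of them among the 17 and FTL in DU145 then lower, and 2 of 8 genes differed among lines. With that control and without replicate 2 of DU145 with MG63 cells, a setting chosen after seeing the data, 9 of 32 passed, 7 of them among the 17, and 4 of 8 genes differed. Scaled TPM counts gave 4 of 9 such genes in place of 7. The cause was not tested. Leaving out each library in turn gave 42 to 47 calls between lines (46 with all libraries), 7 to 8 between phenotypes, 13 to 22 with MG63 cells, 12 to 14 with RANKL and 0 with RAW264.7 cells, and 6 to 8, 4 to 7 and 0 genes whose change differed among lines. The top of the MG63 range came without replicate 2 of DU145 with MG63 cells and the 7 without RANKL replicate 2 of 22Rv1. Reversed values were FTH1 between BPCa and LPCa over coding transcripts (-0.034) and, against RANKL mono-cultures, HMOX1 in C4-2 (-0.10), FTL in DU145 (-0.34) and NQO1 in DU145 (0.15), and, also without that replicate, the same 3 (-0.098, -0.44 and 0.019) and TXNRD1 in DU145 (0.092). Of the other alternative values of single genes, 2372 kept direction and side of the threshold and 89 kept direction only. Scaling to library size alone moved the median of all genes by -0.11 to -0.061 (log2) with MG63 cells and by -0.10 to -0.028 with RANKL and ended 6 calls of members, those of GCLM and NQO1 in C4-2B and FTH1 in DU145 with RANKL and of GCLM in C4-2B and FTL and NQO1 in 22Rv1 with MG63 cells. Between C4-2 and C4-2B it turned 838 higher and 996 lower genes into 1120 and 803.

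Deviations from the group means of samples with equal replicate numbers correlated by a mean of -0.033 for MG63 co-cultures and mono-cultures (range -0.075 to -0.012). In a group of 2 libraries the deviations mirror each other, so this check cannot exclude pairing. With the replicate number as a block, the calls were 46 between lines, 7 between phenotypes, 15 with MG63 cells, 14 with RANKL and 0 with RAW264.7 cells (SRXN1 between phenotypes, adjusted p = 0.0547, and GCLM in C4-2B and NQO1 in DU145 with MG63 cells were lost), and 7, 4 and 0 genes differed among lines. Over all genes the block moved counts of calls by over 1.5 times for C4-2 against C4-2B (1834 to 1193), for the MG63 change among lines (1954 to 1237) and for the RAW264.7 comparisons, of at most 16 calls.

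Depth limits AKR1B10, which stayed under 100 counts in all libraries, and AKR1C1 in the C4-2 pair. A co-culture left with 1 library was taken to vary like the other groups. With 2 replicates per co-culture, calls near the threshold rest on single libraries, as given beside them. Depth and culture cannot be told apart against mono-culture, and mRNA is no direct measure of NRF2 activity or ferritin protein.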
